A study of Mus musculus with 6 samples.

Results

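The genes described here are 52 regulators of the cell cycle and of RNA polymerase II whose protein products are cyclins, cyclin-dependent kinases (CDKs), their partners and inhibitors, or factors of the E2F and retinoblastoma (RB) pathway. They were listed by name, and a probe set was taken for a gene where the platform annotation gave that single symbol. On the arrays 49 of the 52 were measured, with 89 probe sets, out of 12393 genes and 22626 probe sets in all. Ccnb1, Cdkn3 and E2f2 were not analysed here. Of the 49, 25 had 1 probe set and 24 had several.

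The study compared regulatory T cells (Tregs) of wild-type (WT) C57BL/6 mice with Tregs of fl-HDAC11/Foxp3cre mice, hereafter HDAC11−/−, on 6 Affymetrix Mouse430A arrays, 3 per genotype. In the second genotype both alleles of Hdac11, a histone deacetylase gene, carry loxP sites, and Cre recombinase is expressed from the Foxp3 locus, which limits the deletion to cells that have turned on Foxp3. The WT mice are labelled with neither the floxed allele nor Cre, so an effect of Cre itself cannot be told apart from that of the deletion. The cells were CD4+CD25+ Tregs of young adult mice on the C57BL/6 background, with no treatment given in the labels. Whether each array stands for a separate mouse is not in the labels, and the p-values given here reflect the spread between these arrays alone, which may be technical.

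Progression through the cell cycle is driven by cyclins that appear in turn and switch on their CDK partners. D-type cyclins with CDK4 and CDK6, and then E-type cyclins with CDK2, phosphorylate RB family proteins in G1, which frees E2F factors to turn on the genes of DNA synthesis, while cyclin A, cyclin B and CDK1 act in S phase, G2 and mitosis. Another group of cyclins and CDKs, among them CDK7, CDK9 and CDK12, phosphorylates RNA polymerase II and serves transcription in all cells. Many Tregs are at rest, and Tregs that meet their antigen enter the cycle and divide.

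The deposited values are log2 expression levels after robust multiarray average (RMA) normalization. The array medians lay between 6.74 and 6.77, and arrays of different genotypes correlated at 0.985 to 0.988, against at least 0.997 for arrays of 1 genotype. Precision is limited by having 3 arrays per genotype, with a median SD per probe set of 0.09 in WT and 0.07 in HDAC11−/−. Hdac11 itself differed by -0.12 on the log2 scale in the brighter of its probe sets. The position of these probes in the gene (not given in the sources used here) may be outside the deleted part, and so they check neither deletion nor labels. Of 14 Treg and T cell identity genes none was called, 1 was higher (Ctla4, at 0.50) and 4 lower (Ikzf4, Cd4, Itgae and Ikzf2, at -0.48 to -0.22) at the adjusted p alone, and the log2 of their summed level was 15.55 to 15.59 in WT and 15.58 to 15.61 in HDAC11−/−. Foxp3, the defining factor of Tregs, had a single probe set whose signal did not exceed the highest bacterial control probe set in either genotype, so the arrays give no usable level of it. The log2 difference between the 3′ and 5′ control probe sets, a sign of RNA integrity, was 0.47 to 0.53 in WT and 0.42 to 0.44 in HDAC11−/− for Actb, and 0.088 to 0.095 against -0.0011 to 0.037 for Gapdh, so the genotypes did not overlap, and the part of this in the results was not tested.

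Of the 49 measured genes 14 rose and 3 fell in HDAC11−/− Tregs, and 32 were not called. A call needed a Benjamini-Hochberg adjusted p under 0.05 from limma over all probe sets and at least a 1.5-fold difference, with the probe set of highest mean standing for its gene. The 14 are 28.6% of the measured members, beside 3.46% of all genes called higher, and the 3 are 6.12%, beside 3.72% of all genes called lower. At the adjusted p alone 25 members were higher and 8 lower, beside 22.9% and 23.2% of all genes. The 3 HDAC11−/− arrays all lay above the 3 WT arrays in 27 members and all below them in 9, beside 28.2% and 29.6% of all genes. The median log2 fold change of the members was 0.19, and that of all genes was -0.04. The split over all genes, 429 called higher and 461 lower, became 317 and 707 when the arrays were scaled on 13 reference genes. The median of all genes was then -0.14. Of these reference genes 4 were higher and 0 lower at the adjusted p alone, and none was called. Their log2 fold changes ran from -0.09 to 0.51, with a median of 0.04. The scale was their mean, which such genes shift. In such bulk RNA a change in the share of cells that express a gene and a change in the RNA per cell cannot be told apart.

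**Figure D1:**
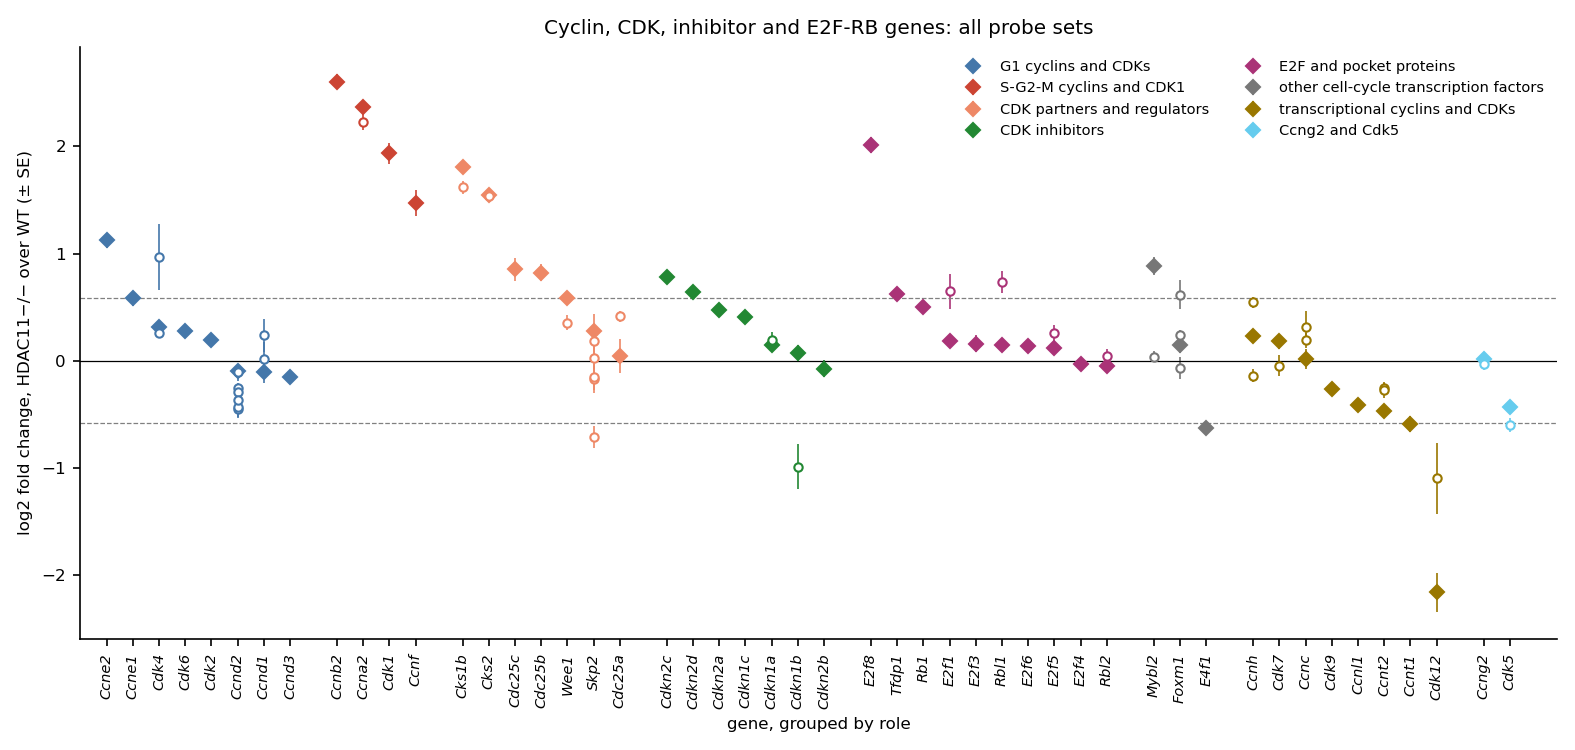
Log2 fold change of HDAC11−/− over WT with its standard error for the 89 probe sets of the 49 measured genes, grouped by role (3 arrays per genotype). A filled diamond is the brightest probe set of its gene, and an open circle any other. Dashed lines mark 1.5-fold. Ccne2, Cdc25c and Cdkn2a, no brighter than the bacterial controls in WT, are drawn at their fitted values. The S-G2-M cyclins and Cdk1 lie between 1.47 and 2.61, while most transcriptional cyclins and CDKs lie below 0, down to Cdk12 at -2.16.

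The cyclins of S phase, G2 and mitosis and their kinase Cdk1 rose together. All 4 measured genes of this set of 5 were called higher, with log2 fold changes from 1.47 to 2.61 and a median of 2.15. Ccnb2, which encodes a mitotic cyclin B, had log2 levels of 6.37, 6.57 and 6.60 in WT and of 9.14, 9.07 and 9.14 in HDAC11−/−. Its lowest HDAC11−/− array lay far above its highest WT array, and the difference was 6.09-fold (log2 fold change 2.61, SE 0.07, adjusted p = 3.13e-06 from limma). Ccna2, the cyclin A of S phase and G2, was at 7.27, 7.16 and 7.15 in WT and at 9.53, 9.58 and 9.59 in HDAC11−/−. This was 5.18-fold higher (SE 0.05 on the log2 scale, adjusted p = 2.00e-06), and its second probe set gave 4.70-fold. Cdk1, the kinase that starts mitosis, was at 6.95, 6.82 and 6.57 in WT and at 8.66, 8.74 and 8.74 in HDAC11−/−. The genotypes were separated by more than the whole WT range, and the difference was 3.82-fold (SE 0.10, adjusted p = 2.94e-05). Ccnf, which encodes cyclin F, the substrate-binding subunit of a ubiquitin ligase rather than a CDK activator, was at 5.70, 5.35 and 5.81 in WT and at 7.22, 6.99 and 7.07 in HDAC11−/−. It was the least changed of the set, with 2.78-fold (log2 fold change 1.47, SE 0.12, adjusted p = 0.000234).

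**Figure D2:**
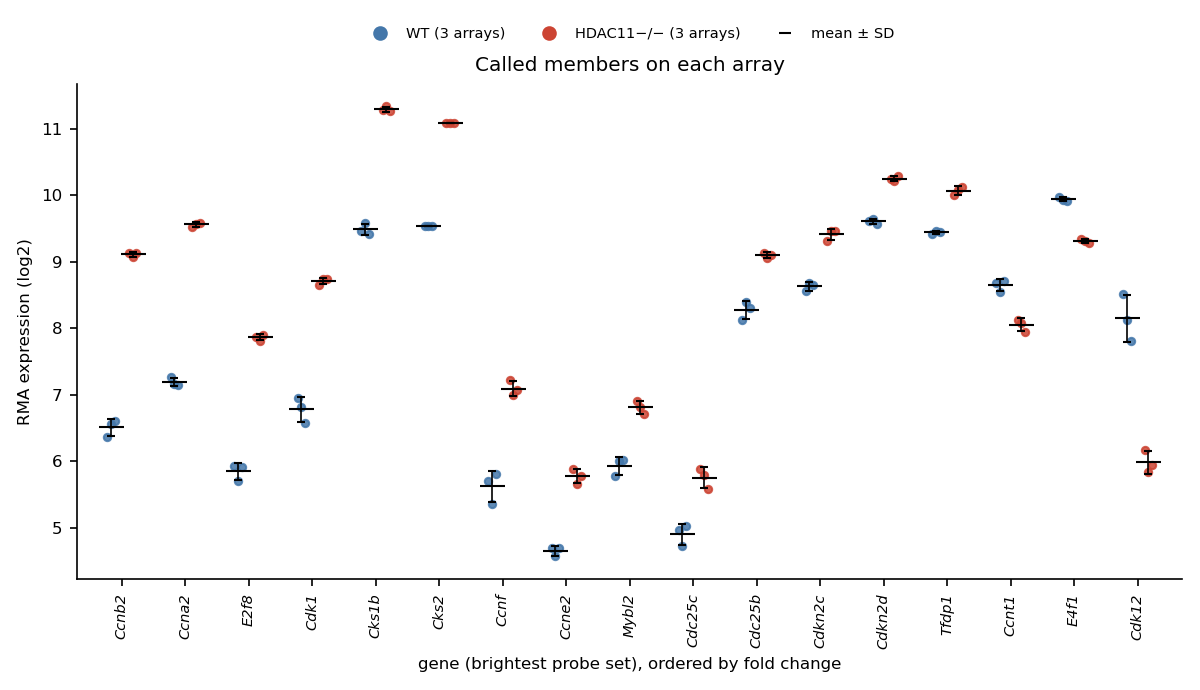
Log2 RMA expression of the 17 called members (brightest probe set) on the 6 arrays, ordered by fold change. Points are arrays, and bars give mean and SD for each genotype. HDAC11−/− points lie above those of WT in the 14 genes on the left, from Ccnb2 at a log2 fold change of 2.61 to Tfdp1 at 0.63, and below them in Ccnt1, E4f1 and Cdk12 on the right.

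Promoters of mitotic cyclin genes are known for a cell cycle genes homology region (CHR), read by the MuvB complex with B-MYB and FOXM1 or with the RB-like proteins, and for CCAAT boxes, read by NF-Y, while promoters of G1/S genes are known for E2F sites. These letters were searched for in RefSeq promoter windows of the GRCm38.p6 assembly, from 250 bases before to 50 after the annotated start, on both strands, and 39 of the 52 genes had a window. The CHR was searched as TTTGAA, the CCAAT box as CCAAT and the E2F site as TTTCGCGC, TTTGGCGC or TTTCCCGC, and no motif contains another. Of the 11 called higher members with a window, 5 held the CHR and 9 the CCAAT box, and 5 held both. Of the 22 uncalled members with a window, 4 held the CHR, 10 the CCAAT box and 2 both. An E2F motif was found in 2 of the 11 called higher members and in 5 of the 22 uncalled ones. Of all 27025 genes with a window 20.2% held the CHR, 41.1% the CCAAT box, 7.97% both and 2.1% any of the E2F motifs. A match describes the letters only, and no binding was measured. Ccna2, Ccne2 and Cdc25c, which were also called, had no window.

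The 5 called members with both motifs are shown from 150 bases before to 15 after the start, 5′ to 3′ on the gene's strand, because they are the called members with both motifs and a CHR lies close to the start in each. Capitals mark the CHR (TTTGAA, or TTCAAA for a match on the other strand), the CCAAT box (CCAAT, or ATTGG on the other strand) and the E2F motif TTTCGCGC (GCGCGAAA on the other strand). The windows are, on the minus strand, chr9:70421540-70421704 for Ccnb2, chr10:69352898-69353062 for Cdk1, chr17:24251395-24251559 for Ccnf, chr3:89418277-89418441 for Cks1b and chr7:48881582-48881746 for E2f8.
Ccnb2: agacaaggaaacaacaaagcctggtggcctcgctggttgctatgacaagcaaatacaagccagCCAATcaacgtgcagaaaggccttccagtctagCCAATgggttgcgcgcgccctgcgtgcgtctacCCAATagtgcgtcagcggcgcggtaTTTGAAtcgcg
Cdk1: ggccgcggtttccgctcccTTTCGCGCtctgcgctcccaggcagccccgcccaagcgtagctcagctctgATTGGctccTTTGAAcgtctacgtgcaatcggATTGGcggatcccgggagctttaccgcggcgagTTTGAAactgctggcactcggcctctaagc
Ccnf: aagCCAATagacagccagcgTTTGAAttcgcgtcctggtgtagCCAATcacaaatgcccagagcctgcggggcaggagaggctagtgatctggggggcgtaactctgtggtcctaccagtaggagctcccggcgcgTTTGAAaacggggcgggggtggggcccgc
Cks1b: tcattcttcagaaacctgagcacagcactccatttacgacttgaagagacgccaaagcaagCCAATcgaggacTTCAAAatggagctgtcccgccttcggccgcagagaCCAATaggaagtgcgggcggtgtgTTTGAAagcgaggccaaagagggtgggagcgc
E2f8: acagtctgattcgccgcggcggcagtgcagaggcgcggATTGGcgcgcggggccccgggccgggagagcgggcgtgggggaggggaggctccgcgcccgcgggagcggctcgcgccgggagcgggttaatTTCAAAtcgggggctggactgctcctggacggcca

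Counted from the start, the CHR nearest to it began at position 5 in Ccnb2, -15 in Cdk1, -14 in Ccnf, -17 in Cks1b and -20 in E2f8, where it lay on the other strand. Ccnb2 had 3 CCAAT boxes before its start, at -87, -54 and -21, evenly spaced. Cdk1 was the only one of the 5 with an E2F motif, at -131. Of the E2F motifs, TTTCGCGC was found in 3 of the 39 members with a window and in 0.374% of all genes with one. TTTCCCGC was found in 3 uncalled members and in none called higher, and TTTGGCGC in 1 uncalled member and in none called higher. The other members with TTTCGCGC were Tfdp1, which was called higher, and Rbl1, which was called only by its dimmer probe set. They are shown for that reason, at chr8:13338601-13338765 on the plus strand and chr2:157204520-157204684 on the minus strand.
Tfdp1: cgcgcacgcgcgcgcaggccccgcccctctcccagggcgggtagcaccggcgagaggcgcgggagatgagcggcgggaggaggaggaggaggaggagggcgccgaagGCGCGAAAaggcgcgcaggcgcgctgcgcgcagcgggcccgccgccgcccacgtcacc
Rbl1: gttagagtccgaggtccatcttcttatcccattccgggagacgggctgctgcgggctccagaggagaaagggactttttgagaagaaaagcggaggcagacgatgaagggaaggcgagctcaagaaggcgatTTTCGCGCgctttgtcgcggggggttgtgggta

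**Figure D3:**
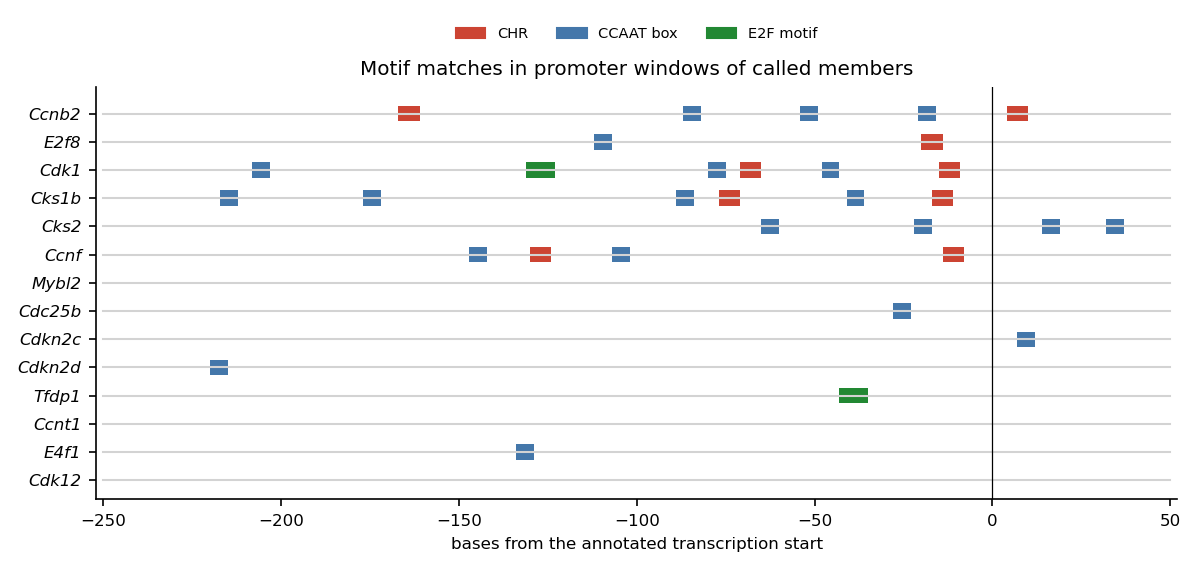
Matches of the CHR, the CCAAT box and the E2F motifs in the promoter windows of the 14 called members that have one, against the distance in bases from the annotated start, ordered by fold change from Ccnb2 to Cdk12 (genes with 2 windows are drawn by the first). CHR matches lie only in Ccnb2, E2f8, Cdk1, Cks1b and Ccnf of these 14, while Mybl2, Ccnt1 and Cdk12 show none of the motifs.

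Among the proteins that bind CDKs or set their phosphorylation, 4 of 7 measured genes rose and none fell, with a median log2 fold change of 0.82, or 0.58 with Cdc25c at its bound. Cks1b and Cks2, small subunits that tether CDKs to their substrates, rose most. Cks1b was at 9.47, 9.59 and 9.41 in WT and at 11.28, 11.34 and 11.27 in HDAC11−/−, and Cks2 was at 9.54, 9.53 and 9.54 against 11.09 on each HDAC11−/− array. The arrays of a genotype lay close together, and the differences were 3.51-fold for Cks1b (SE 0.06, adjusted p = 5.57e-06) and 2.93-fold for Cks2 (SE 0.04, adjusted p = 2.83e-06). Their second probe sets gave 3.07-fold and 2.90-fold.

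Of the CDC25 phosphatases, which remove the inhibitory phosphates of CDKs, Cdc25b and Cdc25c rose and Cdc25a was not called. Cdc25b was at 8.13, 8.40 and 8.30 in WT and at 9.14, 9.05 and 9.11 in HDAC11−/− (log2 fold change 0.82, SE 0.08, adjusted p = 0.000349). Cdc25c was at 4.96, 4.72 and 5.02 in WT, no brighter than the bacterial controls, and at 5.88, 5.80 and 5.58 in HDAC11−/−. It is therefore given only as a bound, at least 1.28-fold higher (adjusted p = 0.00103). For such a gene the bound was taken against the highest bacterial control of each array, whose mean was 5.39 in WT and 5.14 in HDAC11−/−. Cdc25a had a log2 fold change of 0.04 (95% interval -0.33 to 0.42) in its brighter probe set, whose arrays overlapped, and of 0.41 (adjusted p = 0.00126) in the other.

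Wee1, the kinase that opposes CDC25 by adding those phosphates, lay just under the fold threshold of 0.585 on the log2 scale. It was at 7.80, 7.79 and 7.75 in WT and at 8.32, 8.35 and 8.42 in HDAC11−/− (log2 fold change 0.58, SE 0.05, adjusted p = 0.000201). The genotypes did not overlap. With scaling on the bacterial controls the gene passed both criteria, at 0.61, and it also passed them without some of the arrays. Skp2, which encodes the substrate receptor that sends the inhibitor p27 to degradation, had 6 probe sets with log2 fold changes from -0.71 to 0.28. Its brightest was at 0.28 (95% interval -0.09 to 0.65), and the sign turned to -0.17 with the probe set brightest on the WT arrays.

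Of the 8 G1 cyclins and CDKs 1 rose and none fell. The median log2 fold change was 0.24, 5 were higher and 1 lower at the adjusted p alone, and the uncalled genes ranged from -0.16 to 0.58. The median became 0.14 with scaling on the reference genes. The called gene was Ccne2, a cyclin E that activates CDK2 at the entry into S phase. It was at 4.69, 4.57 and 4.69 in WT, no brighter than the bacterial controls, and at 5.88, 5.66 and 5.78 in HDAC11−/−, at least 1.30-fold higher (adjusted p = 7.52e-05). Ccne1, the other cyclin E, was at 6.72, 6.97 and 6.91 in WT and at 7.44, 7.42 and 7.49 in HDAC11−/−. Its genotypes did not overlap, and the log2 fold change was 0.58 (SE 0.07, adjusted p = 0.00108), just short of 1.5-fold, which it passed at 0.61 on the scale of the bacterial controls.

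None of the G1 kinases was called by its brightest probe set. Cdk4, the main partner of D-type cyclins together with Cdk6, had a log2 fold change of 0.32 (95% interval 0.20 to 0.44, adjusted p = 0.00254), Cdk6 one of 0.27 (0.13 to 0.42, adjusted p = 0.00987) and Cdk2, the partner of cyclin E, one of 0.20 (0.07 to 0.32, adjusted p = 0.0199). All 3 passed the adjusted p but not the fold threshold, and for each the upper end of the interval lay under it.

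None of the D-type cyclins, which link growth factor signals to the cycle, was called. Ccnd2 was at 12.59, 12.51 and 12.46 in WT and at 12.43, 12.42 and 12.41 in HDAC11−/−, a log2 fold change of -0.10 (95% interval -0.22 to 0.02). The other 6 probe sets gave -0.11 to -0.45, with 5 of the 7 lower at the adjusted p. Ccnd3 was at -0.16 (adjusted p = 0.0235), and Ccnd1, with overlapping arrays, was at -0.10 (95% interval -0.35 to 0.14).

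Of the 7 CDK inhibitor genes 2 rose and none fell by their brightest probe sets, with a median log2 fold change of 0.40, or 0.27 without Cdkn2a, which has no usable fold. The called genes were Cdkn2c and Cdkn2d, which encode p18 and p19, inhibitors of CDK4 and CDK6 of the INK4 family. Cdkn2c was at 8.56, 8.68 and 8.65 in WT and at 9.32, 9.46 and 9.46 in HDAC11−/− (log2 fold change 0.78, SE 0.06, adjusted p = 0.000175). Cdkn2d was at 9.61, 9.65 and 9.57 in WT and at 10.25, 10.22 and 10.29 in HDAC11−/− (log2 fold change 0.64, SE 0.05, adjusted p = 0.000134). Neither gene overlapped between genotypes, and Cdkn2d lost its call, at 0.55, with scaling on the reference genes.

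The other INK4 genes gave little signal. Cdkn2a, of which p16 and ARF are products, was at 4.81, 4.68 and 4.78 in WT, no brighter than the bacterial controls, and at 5.25, 5.18 and 5.24 in HDAC11−/−, below the mean of the highest WT control, and no fold can be given. Cdkn2b was at -0.07 (95% interval -0.26 to 0.12). Of the CIP/KIP family, which inhibits CDK2 complexes, Cdkn1a was at 0.14 (95% interval -0.0012 to 0.29) and Cdkn1c at 0.40 (adjusted p = 0.000743), under the fold threshold.

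Cdkn1b, which encodes p27, had probe sets that differed. The brighter was at 10.54, 10.78 and 10.73 in WT and at 10.72, 10.82 and 10.71 in HDAC11−/−, a log2 fold change of 0.07 (95% interval -0.11 to 0.24). The dimmer was at 7.10, 6.64 and 6.50 in WT and at 6.09, 5.80 and 5.39 in HDAC11−/−, and it was 1.99-fold lower (SE 0.21 on the log2 scale, adjusted p = 0.0095). The arrays of the brighter probe set overlapped between genotypes and those of the dimmer did not. Which transcripts each probe set reads was not tested.

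Of the E2F and pocket protein genes 2 of 10 measured were called, both higher. The median log2 fold change was 0.15, and 5 were higher and none lower at the adjusted p alone. The median became 0.053 with scaling on the reference genes and 0.30 with the mean of the probe sets of each gene. E2f8, an atypical E2F that represses E2F target genes late in S phase, was at 5.93, 5.70 and 5.92 in WT and at 7.88, 7.81 and 7.90 in HDAC11−/−. It was 4.05-fold higher (SE 0.07 on the log2 scale, adjusted p = 8.59e-06), the third highest fold change of the members. Tfdp1, the DP1 subunit that pairs with E2F proteins on DNA, was at 9.42, 9.46 and 9.45 in WT and at 10.00, 10.08 and 10.13 in HDAC11−/− (log2 fold change 0.63, SE 0.05, adjusted p = 0.0002). Its arrays did not overlap, and its call was lost, at 0.53, with scaling on the reference genes.

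Apart from E2f8, no measured E2F gene was called by its brightest probe set. E2f1, which turns on genes of S phase, was at 0.19 (95% interval 0.05 to 0.32, adjusted p = 0.0331), and its dimmer probe set was called at 0.65 (SE 0.16, adjusted p = 0.0178). E2f3, another activator, was at 0.16 (-0.02 to 0.34). E2f4 and E2f5, which act with pocket proteins in resting cells, were at -0.03 (-0.17 to 0.11) and 0.12 (-0.04 to 0.28), and E2f6 was at 0.14 (0.01 to 0.26).

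Among the pocket proteins, which hold E2F factors inactive, Rb1 had the largest difference by the brightest probe sets. It was at 9.68, 9.77 and 9.72 in WT and at 10.23, 10.22 and 10.24 in HDAC11−/−, a log2 fold change of 0.51 (95% interval 0.40 to 0.61, adjusted p = 0.000303). The arrays did not overlap, and the gene was under the fold threshold. Rbl1, which encodes p107, was at 0.14 in its brighter probe set and was called at 0.73 in the dimmer, which was at 6.60, 6.94 and 6.98 in WT and at 7.56, 7.58 and 7.57 in HDAC11−/− (SE 0.10, adjusted p = 0.00171). Rbl2, which encodes p130 of resting cells, was at -0.05 (95% interval -0.16 to 0.06).

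Mybl2 and Foxm1 encode factors that turn on the genes of G2 and mitosis with the MuvB complex. Mybl2, which encodes B-MYB, was at 5.77, 5.99 and 6.02 in WT and at 6.91, 6.82 and 6.71 in HDAC11−/−, and it was 1.85-fold higher (log2 fold change 0.88, SE 0.09, adjusted p = 0.000398). The call was lost, at 0.46, with the mean of its probe sets. Its second probe set, close to the range of the bacterial controls, was at 0.04 (95% interval -0.09 to 0.16). Foxm1 was at 0.15 (95% interval -0.04 to 0.34) in the brightest of 4 probe sets and at 0.24 (adjusted p = 0.0068) in the next. Another, no brighter than the bacterial controls in WT, was called and was at least 1.09-fold higher, and the dimmest lay under them in both genotypes. E4f1, a zinc finger factor that acts on cell cycle genes and on p53, was lower on every HDAC11−/− array, at 9.34, 9.31 and 9.29 against 9.98, 9.93 and 9.92 in WT (log2 fold change -0.63, adjusted p = 0.000115).

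Of the 8 transcriptional cyclins and CDKs 2 fell and none rose. The median log2 fold change was -0.34, and at the adjusted p alone 5 were lower and 1 higher. Cdk12, the kinase that phosphorylates the tail of RNA polymerase II during elongation and is known for keeping long DNA repair genes expressed, was at 8.52, 8.12 and 7.81 in WT and at 6.17, 5.84 and 5.94 in HDAC11−/−. It was 4.48-fold lower (log2 fold change -2.16, SE 0.18, adjusted p = 0.000228), the largest fall of the 49 members. The WT arrays were spread, at an SD of 0.36 against 0.17 in HDAC11−/−, and the lowest of them lay far above the highest HDAC11−/− array. Its second probe set was at 6.44, 5.57 and 5.29 in WT and, no brighter than the bacterial controls, at 4.93, 4.90 and 4.17 in HDAC11−/−, at least 1.54-fold lower (adjusted p = 0.0339). Ccnk, the cyclin partner of CDK12, was outside the members and was at 0.26 (SE 0.06, adjusted p = 0.0133), in the other direction and under the fold threshold.

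The elongation factor P-TEFb is made of CDK9 and a T-type cyclin, and 1 of its 3 genes was called, in the lower direction. Ccnt1, which encodes cyclin T1, was at 8.68, 8.54 and 8.72 in WT and at 8.13, 8.08 and 7.95 in HDAC11−/−. Its arrays did not overlap, and it was 1.51-fold lower (log2 fold change -0.59, SE 0.07, adjusted p = 0.000918), just past the threshold. The call of Ccnt1 was lost at -0.57 on the scale of the bacterial controls, and also without WT replicate 1 (-0.57), WT replicate 3 (-0.56) or HDAC11−/− replicate 3 (-0.54). Ccnt2, which encodes cyclin T2, was at 8.89, 8.99 and 8.95 in WT and at 8.51, 8.40 and 8.50 in HDAC11−/− (log2 fold change -0.47, SE 0.05, adjusted p = 0.000673), and its other 2 probe sets were at -0.26 and -0.27. Cdk9 was at 11.54, 11.58 and 11.50 in WT and at 11.24, 11.21 and 11.38 in HDAC11−/− (log2 fold change -0.26, SE 0.06, adjusted p = 0.0111). The arrays of Ccnt2 and Cdk9 did not overlap between genotypes, and neither gene reached 1.5-fold.

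Hexim1 and Larp7, which hold P-TEFb in its inactive form together with 7SK RNA, were not among the members and were higher at the adjusted p. Hexim1 was at 8.42, 8.36 and 8.51 in WT and at 9.52, 9.44 and 9.41 in HDAC11−/−, 2.04-fold higher (log2 fold change 1.03, SE 0.06, adjusted p = 4.78e-05). It was called, and its arrays lay in the opposite order to those of Ccnt1 and Cdk9. Larp7 was at 0.36, under the fold threshold.

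Of the CDK-activating kinase, which also belongs to the transcription factor TFIIH, Cdk7 was at 0.18 (95% interval 0.02 to 0.34, adjusted p = 0.0701) and its cyclin Ccnh at 0.23 (0.10 to 0.36, adjusted p = 0.0121). The 3 probe sets of Ccnh ranged from -0.14 to 0.55, and none was called. Ccnc, the cyclin of the Mediator kinase module, was at 0.01 (-0.21 to 0.23). Ccnl1, a cyclin of splicing and transcription, was at 12.01, 11.91 and 11.95 in WT and at 11.63, 11.53 and 11.47 in HDAC11−/− (log2 fold change -0.41, adjusted p = 0.00201). It was lower on every HDAC11−/− array and under the fold threshold. Its close relative outside the members, Ccnl2, was called lower, at -0.74 (SE 0.04, adjusted p = 5.37e-05).

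Ccng2, a cyclin known from resting cells, was at 0.02 (95% interval -0.09 to 0.13). Cdk5, a kinase known from neurons that needs no cyclin, was at 9.11, 9.0 and 9.07 in WT and at 8.63, 8.58 and 8.67 in HDAC11−/− (log2 fold change -0.43, adjusted p = 0.000895). Its dimmer probe set, at -0.60 (SE 0.07, adjusted p = 0.000614), was called lower and the brighter was not.

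Several probe sets of a gene did not always give the same call. Of the 24 members with several, 4 were called the same way by all of them (Ccna2, Cks1b, Cks2 and Cdk12), 12 by none, and 8 by only some. In 1 of the 8, Mybl2, the brightest was called, and in 7 only a dimmer one was. These were Cdk4, E2f1, Rbl1 and Foxm1 in the higher direction and Skp2, Cdkn1b and Cdk5 in the lower. Counted by any probe set 18 members were called higher and 6 lower, beside 5.31% and 6.66% of all genes. The called probe set of Cdk4 was at 9.14, 8.92 and 7.88 in WT and at 9.68, 9.47 and 9.69 in HDAC11−/− (log2 fold change 0.97, SE 0.31, adjusted p = 0.0417). WT replicate 3 stood below the other WT arrays there. The brighter probe sets of Cdk4 had SDs of 0.03 and 0.04 in WT, against 0.68 in the called one. The brighter ones carry suffixes that mark probes shared by several transcripts, and the called one does not. The called probe set of Skp2 was at -0.71 (SE 0.10, adjusted p = 0.00168), the fourth in brightness, and the other 5 were uncalled in either direction.

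**Figure D4:**
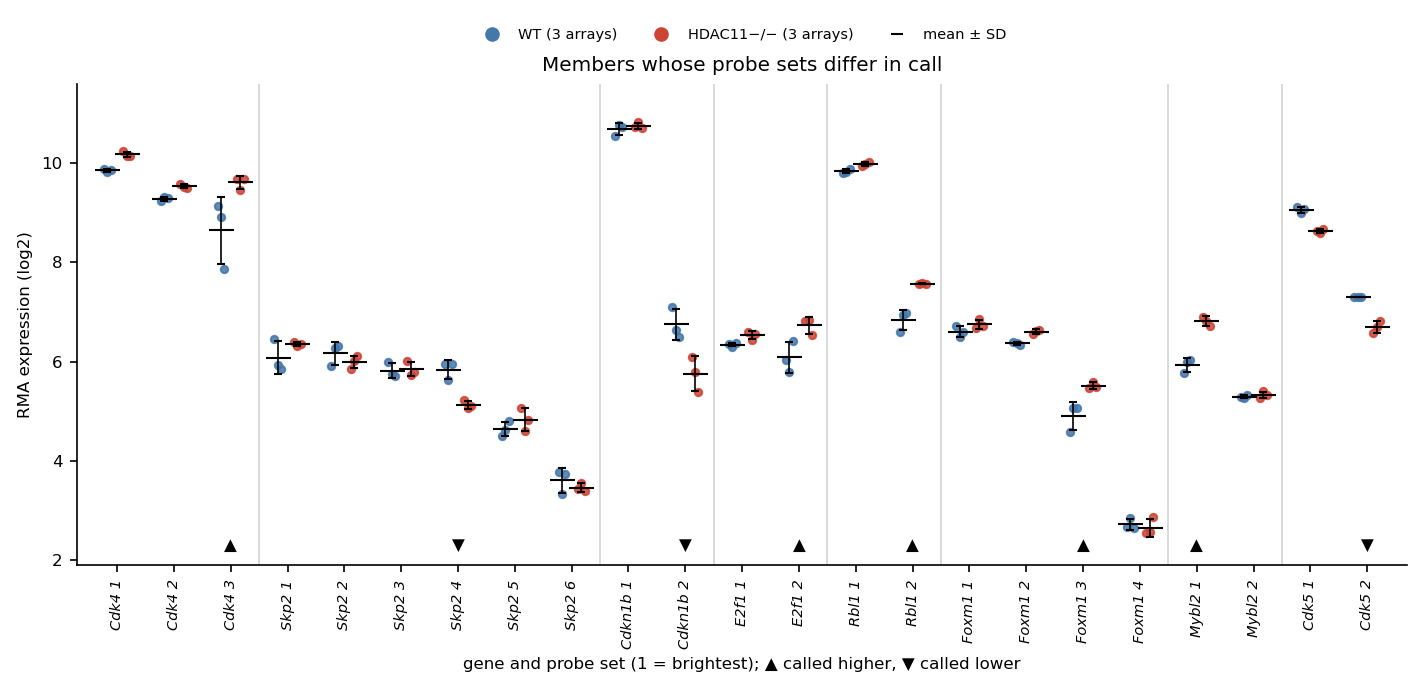
Log2 RMA expression on the 6 arrays for every probe set of the 8 members whose probe sets differ in call, numbered from the brightest, with bars for mean and SD per genotype and triangles under called probe sets. Only in Mybl2 is probe set 1 called. The called probe set of Cdk4 has 1 WT array at 7.88, and that of Cdkn1b lies at 6.50 to 7.10 in WT and 5.39 to 6.09 in HDAC11−/−.

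The genes that these factors act on were taken from lists of known targets. Of 23 measured E2F target genes of G1 and S phase 16 were called higher and 1 lower, with a median log2 fold change of 0.76. Among them Uhrf1, which copies DNA methylation to new strands, was at 1.54 (SE 0.05, adjusted p = 4.30e-06), Rrm2, a ribonucleotide reductase subunit, at 2.04 (SE 0.09, adjusted p = 1.53e-05) and Pola1, the polymerase of primers, at 1.13 (SE 0.05, adjusted p = 2.08e-05). The lower one was Tyms, thymidylate synthase, at 5.98, 5.60 and 5.57 in WT and no brighter than the bacterial controls in HDAC11−/−, at least 1.49-fold lower (adjusted p = 0.00317). Of 23 measured FOXM1 and MYBL2 target genes of G2 and mitosis 22 were called higher and none lower, with a median of 1.74 (1.73 with 4 genes at their bounds and without Cenpe). Bub1, a kinase of the spindle checkpoint, was at 2.68, the spindle motor gene Kif11 at 2.30, the spindle protein gene Nusap1 at 2.46 and Birc5, which encodes survivin, at 2.76. The uncalled one, Cenpe, was no brighter than the bacterial controls in either genotype. These medians were not tested against each other. Some of the target genes were named by the study from these arrays, and those are not independent evidence of a direction.

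Cell cycle proteins are broken down after the SCF and APC/C ubiquitin ligases mark them. Of 19 measured genes of these ligases none was called, 4 were higher and 4 lower at the adjusted p, and the median was 0.05. The largest differences were Anapc11, an APC/C subunit, at 0.42 and Fbxw7, the SCF receptor of cyclin E, at -0.51. Of 3 measured MuvB genes none was called, with a median of 0.14. Of 24 other cyclins, CDKs and CDK-binding proteins, 1 was called higher (Hexim1) and 3 lower, with a median of -0.02. Beside Ccnl2 the lower ones were Cdk11b, a kinase of splicing and transcription, at -0.66 and Cdk16, a kinase of the PCTAIRE group, at -0.62.

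**Figure D5:**
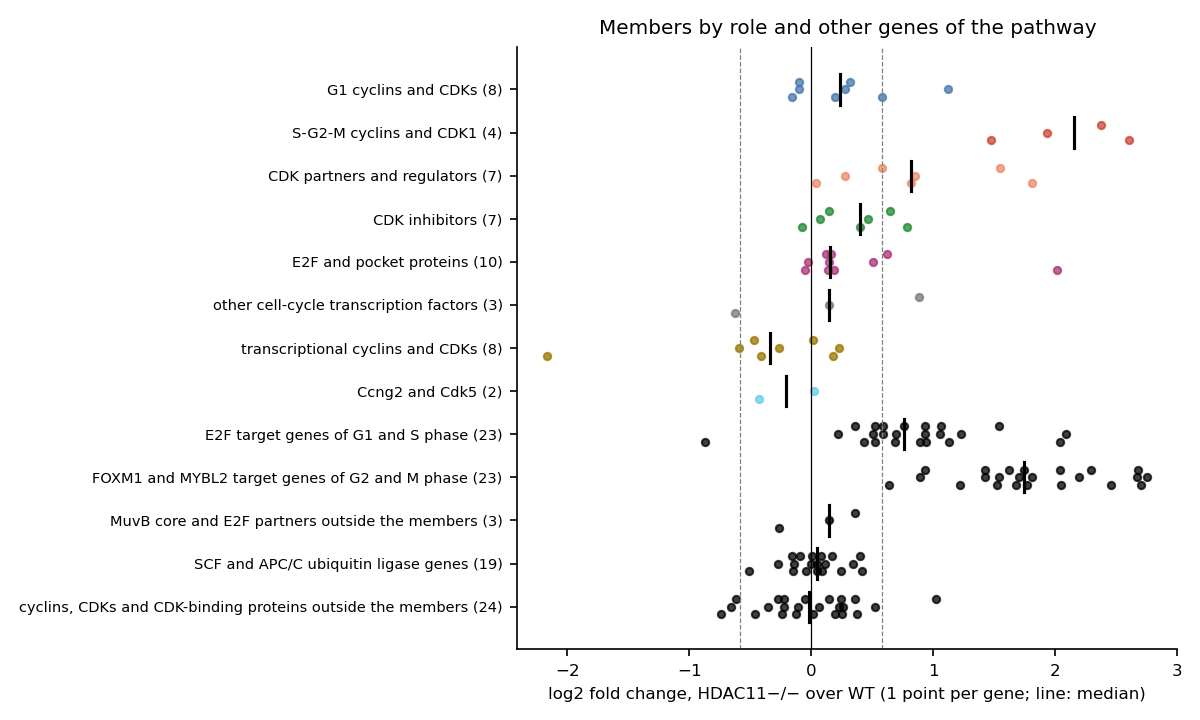
Log2 fold change (HDAC11−/− over WT) of each measured gene by its brightest probe set, as 1 point, for the sets of members by role and for lists of other genes of the pathway (number of genes in brackets), with a line for the median and dashed lines at 1.5-fold. Genes no brighter than the bacterial controls are drawn at their fitted values. The S-G2-M set (median 2.15) and the FOXM1 and MYBL2 targets (median 1.74) lie to the right, the transcriptional set (median -0.34) to the left, and the ubiquitin ligase genes around 0.

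Markers of other cells moved with genotype beside these results, and their part in them was not tested. The log2 of the summed level was 13.74 to 13.78 in WT and 13.47 to 13.49 in HDAC11−/− for 13 B cell genes. Of these, 7 were called lower, and 4 others, Pax5 and Ebf1 among them, were no brighter than the bacterial controls in either genotype. Cr2 and Blnk, both called lower, were no brighter than them in HDAC11−/−, at least 1.12-fold and 1.49-fold lower. Ighm was by far the brightest of the 13, at 13.32 in WT, and differed by -0.11, uncalled. Blk and Ms4a1 fell most, at -2.48 and -1.84. For 11 dendritic cell genes the log2 of the sum was 12.29 to 12.31 against 11.27 to 11.31, with 4 lower. These 4 were the MHC class II genes H2-Aa (the brightest of the 11), H2-Ab1 and H2-Eb1, and Batf3, at -1.60 to -0.86. The uncalled ones ran from Itgax at -0.39 to Ccr9 at 0.23, with Irf8 at -0.04 and Flt3 at 0.11. The log2 of the sum was 11.67 to 11.73 against 11.34 to 11.41 for 13 CD8 T and NK cell genes, with 3 lower and 1 higher. It was 10.96 to 11.03 against 10.65 to 10.70 for 8 thymocyte genes, with 3 lower. Cd1d1, the brightest of the 8 at 10.25 in WT, differed by -0.29, uncalled. At the adjusted p alone 5 of the 8 were lower and 1 was higher, Cd8b1 at 0.42. For 7 erythroid precursor genes the log2 of the sum was 9.72 to 9.75 against 9.74 to 9.85, with 1 lower. Higher sums in HDAC11−/− were found for 7 plasmablast genes (12.31 to 12.32 against 12.44 to 12.45, 1 lower). Of these, Xbp1 (the brightest), Irf4 and Prdm1 were at 0.21 to 0.42. Sdc1, the 1 called lower, was at -0.76, Jchain at -0.21 and Derl3 at -0.13. The sums were also higher for 14 monocyte and macrophage genes (9.35 to 9.48 against 9.76 to 9.81, 6 higher) and 10 neutrophil and myeloid precursor genes (8.04 to 8.19 against 8.50 to 8.57, 2 higher). These 2, S100a8 and S100a9, were no brighter than the bacterial controls in WT, at least 1.44-fold and 1.25-fold higher. C1qa and C1qc of the 6 macrophage genes were also no brighter than them in WT, and C1qc has no usable fold. Not above these controls in either genotype were 6 of the macrophage genes (Adgre1, Itgam, Cd14 and Fcgr1, and also Mrc1 and C1qb, which are 2 of the 6 counted as higher), 4 of the myeloid precursor genes (Mpo, Ctsg, Csf3r and Ltf), Klf1 and Hba-a1 of the erythroid genes, Xcr1 and Cd209a of the dendritic cell genes, Rag2 and Rag1 of the thymocyte genes (Rag1 is 1 of the 3 counted as lower) and Tnfrsf17 of the plasmablast genes.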

How the data were processed

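RNA of CD4+CD25+ Tregs was measured on 6 Affymetrix Mouse430A arrays. The authors deposited RMA-normalized log2 values, 1 for each probe set and array, which were used without change. The probe definitions behind them have a version not given in the sources used here. RMA equalizes the distributions of the arrays, so a shift shared by most genes cannot be seen. The table holds 22671 probe sets. Control probe sets (45) entered no test, and of the 22626 others 20380 carried 1 symbol in the platform annotation, 691 several and 1555 none here.

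Samples were grouped by genotype, the only term of the model. The tests used limma 3.58.1 (lmFit, eBayes) under R 4.3.3, with Benjamini-Hochberg adjustment over the 22626 probe sets. Calls followed the study's thresholds, 1.5-fold or more and an adjusted p under 0.05. The brightest probe set by mean over all arrays stood for a gene. A gene whose arrays of a genotype all lay at or below the highest of 27 bacterial control probe sets of the same array is given as a bound. The highest was the same probe set on every array, PheX-3, at 5.06 to 5.48, and the next lay at 4.56 to 4.86. A gene called no brighter than the bacterial controls is thus no brighter than this highest one, and can exceed most others. Intervals are 95% and use the moderated SE. The procedure was tested on simulated data.

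Members, lists and tests were chosen with earlier results of these data known. Genes named are all called members, members with a called dimmer probe set, in each set the brightest and the most changed uncalled member, and up to 4 genes of each list and direction. Ccnk, Larp7, single markers and further uncalled members were named after their values were seen. Alternatives were SAM over all 20 labelings of the arrays, a trend with a robust prior, the replicate number as a block, another scale (13 reference genes, or the bacterial controls), a filter on dim probe sets, other fold thresholds, other rules for the probe set of a gene, and each array left out. Promoter windows came from RefSeq and were searched with Python 3.11.15 and pandas 2.3.3. Figures were drawn with matplotlib 3.10.9.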

Additional observations from a re-analysis of the deposited data

How the results depend on the processing

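Of the 17 called members 13 kept their call in every alternative that gave them a value, other than a 2-fold threshold, and Cdkn2d, Tfdp1, Mybl2 and Ccnt1 lost it in some. The counts of members called higher and lower, 14 and 3, were the same with SAM, with the intensity trend, with the filter on dim probe sets and with the replicate block. Same-numbered arrays correlated at 0.23, -0.02 and 0.16 in their deviations from the genotype mean. Differently numbered arrays were not compared in this way, so whether the replicate numbers pair the samples was not tested. With the replicate block 430 genes in all were called higher and 462 lower, against 429 and 461.

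The counts moved most with the fold threshold. With a 2-fold threshold 8 members were called higher and 1 lower. By set this left 2 CDK partners and regulators, 1 E2F and pocket gene, 0 CDK inhibitors and 0 other transcription factors higher, and 1 transcriptional gene and 0 other transcription factors lower. With no fold threshold 25 members were higher and 8 lower, with 5 G1 genes, 4 inhibitors, 5 E2F and pocket genes and 1 transcriptional gene higher, and 1 G1 gene, 5 transcriptional genes and 1 of Ccng2 and Cdk5 lower. By any probe set 6 members were lower, with 1 inhibitor, 1 partner or regulator and 1 of Ccng2 and Cdk5 among them, and 2 G1 genes, 4 E2F and pocket genes and 2 other transcription factors were higher.

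Scaling on the reference genes left 1 inhibitor and 1 E2F and pocket gene called higher. It moved the set medians to 0.31 for inhibitors, 0.72 for partners and regulators, -0.30 for Ccng2 and Cdk5, 0.053 for E2F and pocket genes, 0.14 for G1 genes, 2.06 for S-G2-M genes and -0.43 for transcriptional genes. Over all genes it gave 317 higher and 707 lower. Scaling on the bacterial controls gave 2 G1 genes higher, 1 transcriptional gene lower, and medians of -0.18 for Ccng2 and Cdk5 and 0.18 for E2F and pocket genes. Use of probe sets with no suffix (such suffixes mark probes shared by several transcripts) left out the called genes Cdc25b, Cdc25c and Tfdp1. Cdk2, Cdkn2a, Ccnl1 and Rbl2 were left out too. Among the genes left, 2 partners and regulators, 1 E2F and pocket gene and 2 G1 genes were called higher. The first 2 of these counts were lower only because called genes had no value. Medians over the genes left were 0.27 for inhibitors, 0.58 for partners and regulators, 0.17 for E2F and pocket genes and -0.26 for transcriptional genes. The mean of all probe sets gave 0 other transcription factors higher and medians of -0.26 for Ccng2 and Cdk5 and 0.30 for E2F and pocket genes.

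Without each array in turn 14 to 16 members were higher and 2 to 3 lower. Among these, 4 to 5 partners and regulators were higher, with Wee1 added without some of the arrays. Of G1 genes 1 to 2 were higher (Ccne1 was added without HDAC11−/− replicate 1 or 2 or WT replicate 2 or 3). Of transcriptional genes 1 to 2 were lower (Ccnt1 was lost without WT replicate 1 or 3 or HDAC11−/− replicate 3). The medians ranged from 0.75 to 0.84 for partners and regulators, 0.12 to 0.17 for E2F and pocket genes and 2.09 to 2.22 for S-G2-M genes.

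The sign turned in 8 of the 32 uncalled members and in none of the called ones. Ccnc was at -0.086 on the reference scale, and left-out arrays gave -0.039 to 0.11. Ccnd1 was at 0.049 with the mean of its probe sets, and left-out arrays gave -0.17 to 0.0085. Cdk7 was at -0.046 with probe sets that have no suffix, and E2f4 at -0.074 to 0.0015 without 1 array. Ccng2 was at -0.0061 with the mean of its probe sets and -0.079 on the reference scale. Cdc25a was at -0.054 on the reference scale, and left-out arrays gave -0.071 to 0.18. Cdkn1b was at -0.46 with the mean of its probe sets and -0.029 on the reference scale, and left-out arrays gave -0.0017 to 0.11. Skp2 was at -0.17 with the probe set brightest on the WT arrays and -0.091 with the mean. Scaling on the reference genes lowers every log2 fold change by the same amount, and the other probe set rules read other probe sets. Why probe sets or arrays of these genes differed was not tested. Genes no brighter than the bacterial controls have at most a bound, and their fitted values enter counts, medians and plots.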
